A study of Homo sapiens with 24 samples.

Results

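H1299 cells carrying the K3Q form of SIRT6 were set against H1299 cells carrying the K3R form, at 3 libraries each of the 24 in the series. The libraries were taken by construct from the columns of the count table, and the 3 empty-vector libraries (Ctr) and the 3 wild-type SIRT6 libraries (WT) of the same line stand beside them. H1299 is an established human non-small cell lung carcinoma line. Per the labels, all cells received a lentivirus and stably carried a FLAG-tagged construct: the triple acetylation-mimetic mutant K3Q, the triple acetylation-deficient mutant K3R, wild-type SIRT6 or the empty vector. All also kept their own SIRT6 gene, and nothing in the labels says which 3 lysines were changed, which promoter drove the vector, or whether a line is 1 clone or a pool. Libraries 1-1, 1-2 and 2-2 are biological replicate 1 in batch 1, biological replicate 1 in batch 2 and biological replicate 2 in batch 2, and the labels do not say whether 1-1 and 1-2 came from separate cultures, so p-values measure the spread between these libraries, which may be partly technical.

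SIRT6 is a nuclear NAD-dependent deacylase and mono-ADP-ribosyltransferase of the sirtuin family. It removes acetyl groups from lysines of histone H3 and is known for work on chromatin silencing, DNA repair, telomeres and glucose metabolism. A lysine that is changed to arginine keeps its charge and can no longer be acetylated. A lysine changed to glutamine resembles an acetylated lysine in charge. The comparison thus bears on whether the acetylation state of SIRT6 changes what it does to gene expression. It cannot separate that state from the amount of SIRT6, which also differed, as given below.

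The 12 H1299 libraries held 14943189 to 22856407 counted reads, and 2.22% to 3.73% of the reads were mitochondrial. VIM, the intermediate filament of mesenchymal cells, was at 888 to 1384 CPM (reads scaled to a common library total), and the epithelial genes CDH1, EPCAM and FOXA2 were at or near 0. Summed markers of neuroendocrine cells, fibroblasts, leukocytes, endothelium and lung epithelium lay at 13.7 to 21.0, 2.28 to 4.97, 4.22 to 6.16, 0.803 to 2.49 and 3.39 to 4.66 CPM in K3Q, against 14.8 to 18.4, 3.66 to 6.69, 3.98 to 5.76, 1.04 to 2.66 and 2.85 to 3.68 CPM in K3R. GRP and 5 of the 12 lung epithelial markers (SFTPA1, SFTPA2, SFTPD, SCGB1A1 and SCGB3A1) had no read in any of the 12 libraries. On the first principal component, which held 29.9% of the variance, the K3Q libraries lay at -21.2, -19.8 and -11.6 and the K3R libraries at 10.7, 7.31 and 45.3, while WT lay at 7.56, 15.2 and 52.99 and Ctr at -22.4, -38.4 and -25.7. Library 2-2 of K3R and library 2-2 of WT therefore stood apart from their replicates in the same direction, and counts of genes are given below with and without the K3R library.

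SIRT6 itself, the check of the labels, was carried by all 3 SIRT6 constructs. Its level was 15284, 11160 and 14424 CPM in K3Q, against 4220, 2739 and 6035 CPM in K3R, while WT had 2746, 2457 and 6748 CPM and Ctr had 45.3, 34.6 and 38.4 CPM. The K3Q libraries lay above all K3R libraries, by 1.66 on the log2 scale (SE 0.35). The difference did not pass over all genes (adjusted p = 0.0592), and did pass with the library number as a block (log2 1.73, adjusted p = 0.000873). Reads of the construct and of the cells' own gene cannot be separated. The SIRT6 level moved with every K3Q against K3R difference of H1299 given below. The form of SIRT6 and its amount cannot be told apart in this design. For A549 the SIRT6 reads are given with that line below. The other 6 sirtuins did not pass, with log2 differences between -0.08 for SIRT7 and 0.31 for SIRT5.

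A gene passed at an adjusted p (Benjamini-Hochberg over all tested genes, edgeR quasi-likelihood test) under 0.05. In K3Q against K3R, 73 of 16262 tested genes passed (0.449%), 58 lower (0.357%) and 15 higher (0.0922%) in K3Q. At an unadjusted p under 0.05 there were 1938 genes. In RNA from whole cultures, fewer cells that express a gene and less of its RNA per cell cannot be told apart. The 3 K3Q libraries did not overlap the 3 K3R libraries for 72 of the 73 genes, PXK being the exception, against 14.1% of all tested genes. The median log2 difference was -1.20 in the 58 lower genes and 0.96 in the 15 higher genes, against 0.01 over all tested genes. Of the 73, 39 differed by more than 2-fold and 13 by more than 4-fold, the 13 all lower in K3Q. No gene passed without library 1-1 of K3Q (edgeR, 1349 at an unadjusted p under 0.05), 4 without K3Q 1-2, 5 without K3Q 2-2, 4 without K3R 1-1 and 11 without K3R 2-2. None passed with libraries 1-1 and 1-2 of each construct summed (1144 unadjusted) or in batch 2 alone (978 unadjusted), while 337 passed with DESeq2 and 526 (178 higher and 348 lower) with the library number as a block. The threshold fell between DOCK2, TACC1 and SAMHD1 (adjusted p = 0.0479) and LGALS3 (0.0505), PPP2R2C and SFMBT2 (0.0515 for both).

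**Figure D1:**
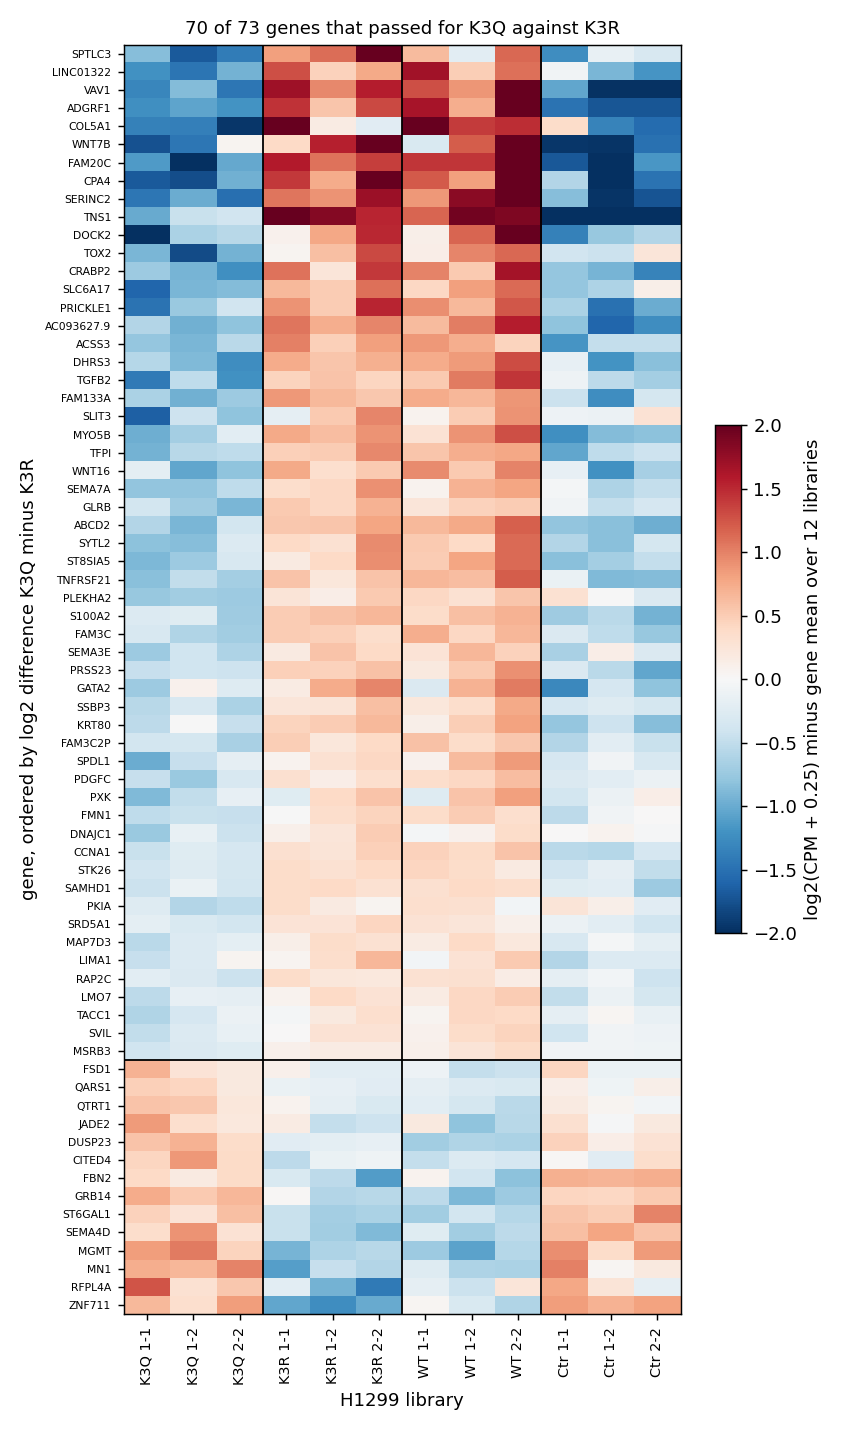
Each row is 1 of 70 of the 73 genes that passed for K3Q against K3R in H1299 and each column a library, ordered K3Q, K3R, WT and Ctr; colour gives log2(CPM + 0.25) minus the gene's mean over the 12 libraries, and the horizontal line separates the 56 genes lower in K3Q from the 14 higher. The K3Q and Ctr columns share their colour in most rows, and the K3R and WT columns share the other.

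Promoters are printed for the genes whose difference was least tied to any single library: TFPI, FAM3C and SLC6A17, which passed in 5 of the 6 fits that left out a K3Q or K3R library, and MGMT, which passed in 3 of 6, as did MYO5B and ZNF711. Each runs from 250 bases before to 50 bases after the transcription start in the RefSeq table for GRCh38.p14, read 5′ to 3′ on the gene's strand, and capitals mark GC boxes (GGGCGG or its reverse CCGCCC) and an AP-1 site (TGANTCA). The windows are chr2:187554386-187554685 for TFPI (minus strand), chr7:121396259-121396558 for FAM3C (minus strand), chr1:110150244-110150543 for SLC6A17 (plus strand) and chr10:129466991-129467290 for MGMT (plus strand).
TFPI: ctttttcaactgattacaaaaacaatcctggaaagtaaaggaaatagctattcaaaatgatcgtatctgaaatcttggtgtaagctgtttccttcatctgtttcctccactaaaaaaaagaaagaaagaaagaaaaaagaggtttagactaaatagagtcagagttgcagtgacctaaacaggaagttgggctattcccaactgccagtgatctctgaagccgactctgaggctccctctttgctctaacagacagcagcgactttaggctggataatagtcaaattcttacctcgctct
FAM3C: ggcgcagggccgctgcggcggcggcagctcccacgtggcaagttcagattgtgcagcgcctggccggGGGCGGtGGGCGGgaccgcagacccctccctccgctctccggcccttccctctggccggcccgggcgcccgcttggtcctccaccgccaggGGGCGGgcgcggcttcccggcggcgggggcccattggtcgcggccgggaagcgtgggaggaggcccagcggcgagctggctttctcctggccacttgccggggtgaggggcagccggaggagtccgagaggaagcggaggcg
SLC6A17: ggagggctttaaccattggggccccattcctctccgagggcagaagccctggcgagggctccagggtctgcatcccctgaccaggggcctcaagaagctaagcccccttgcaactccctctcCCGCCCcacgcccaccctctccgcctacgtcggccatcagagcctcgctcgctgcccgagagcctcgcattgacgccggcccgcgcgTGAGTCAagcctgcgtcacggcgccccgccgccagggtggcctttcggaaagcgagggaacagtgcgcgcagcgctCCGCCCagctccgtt
MGMT: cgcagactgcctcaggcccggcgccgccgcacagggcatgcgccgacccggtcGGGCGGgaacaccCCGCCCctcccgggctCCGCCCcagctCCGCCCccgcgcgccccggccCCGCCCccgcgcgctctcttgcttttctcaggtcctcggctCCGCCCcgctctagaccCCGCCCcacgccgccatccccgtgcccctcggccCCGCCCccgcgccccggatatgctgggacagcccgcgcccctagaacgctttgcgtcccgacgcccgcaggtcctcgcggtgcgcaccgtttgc
The RefSeq start used for TFPI lies inside the GENCODE gene. The TFPI window held no GC box and 4 CpG, with 39.3% G or C. FAM3C had 3 GC boxes and 35 CpG, SLC6A17 had 2 GC boxes, 1 AP-1 site and 28 CpG, and MGMT had 8 GC boxes and 45 CpG. A GC box is present in 44.6% and an AP-1 site in 7.76% of the 27305 promoters of the table, and in 70.2% and 4.43% of the 11188 that belong to a tested gene, and a match is a description of the letters only. Only 43 of the 58 lower genes and 13 of the 15 higher genes had a promoter in the table, under the 80% needed for shares over the 73, so none are given.

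TFPI, which encodes the secreted inhibitor of the tissue factor pathway of coagulation (chr2:187464230-187565760, minus strand), had 6.39, 8.45 and 8.80 CPM in K3Q, against 17.6, 17.9 and 24.7 CPM in K3R. WT had 18.5, 21.1 and 21.7 CPM and Ctr had 5.99, 8.73 and 9.42 CPM. The K3Q libraries lay with the empty vector, and the K3R libraries with the wild type, with a gap between the pairs. K3Q minus K3R was -1.36 (SE 0.15, adjusted p = 0.00366), and K3Q minus Ctr was -0.02 (SE 0.15).

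FAM3C, a secreted protein linked to the epithelial-mesenchymal transition (chr7:121348851-121396364, minus strand), had 68.9, 56.9 and 53.2 CPM in K3Q and 123, 120 and 110 CPM in K3R. WT libraries had 143, 115 and 136 CPM, and Ctr libraries 70.6, 60.2 and 50.8 CPM. The 3 K3Q values fell within the range of Ctr and the K3R values overlapped those of WT. The log2 difference K3Q minus K3R was -0.99 (SE 0.11, adjusted p = 0.00366). FAM3C2P, a pseudogene copy of FAM3C that could share its reads, was also lower (log2 -0.85, SE 0.16).

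SLC6A17, a neutral amino acid transporter of synaptic vesicles, had 2.63, 4.37 and 4.51 CPM in K3Q and 13.4, 11.99 and 18.3 CPM in K3R. The wild type gave 11.3, 15.1 and 18.7 CPM and the empty vector 4.82, 5.41 and 9.14 CPM. Here the K3Q libraries lay below every Ctr library, and K3R above every Ctr library. K3Q minus K3R was -1.96 (SE 0.23, adjusted p = 0.00511), while K3Q minus Ctr was -0.76 (SE 0.23, adjusted p = 0.339) and did not pass.

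**Figure D2:**
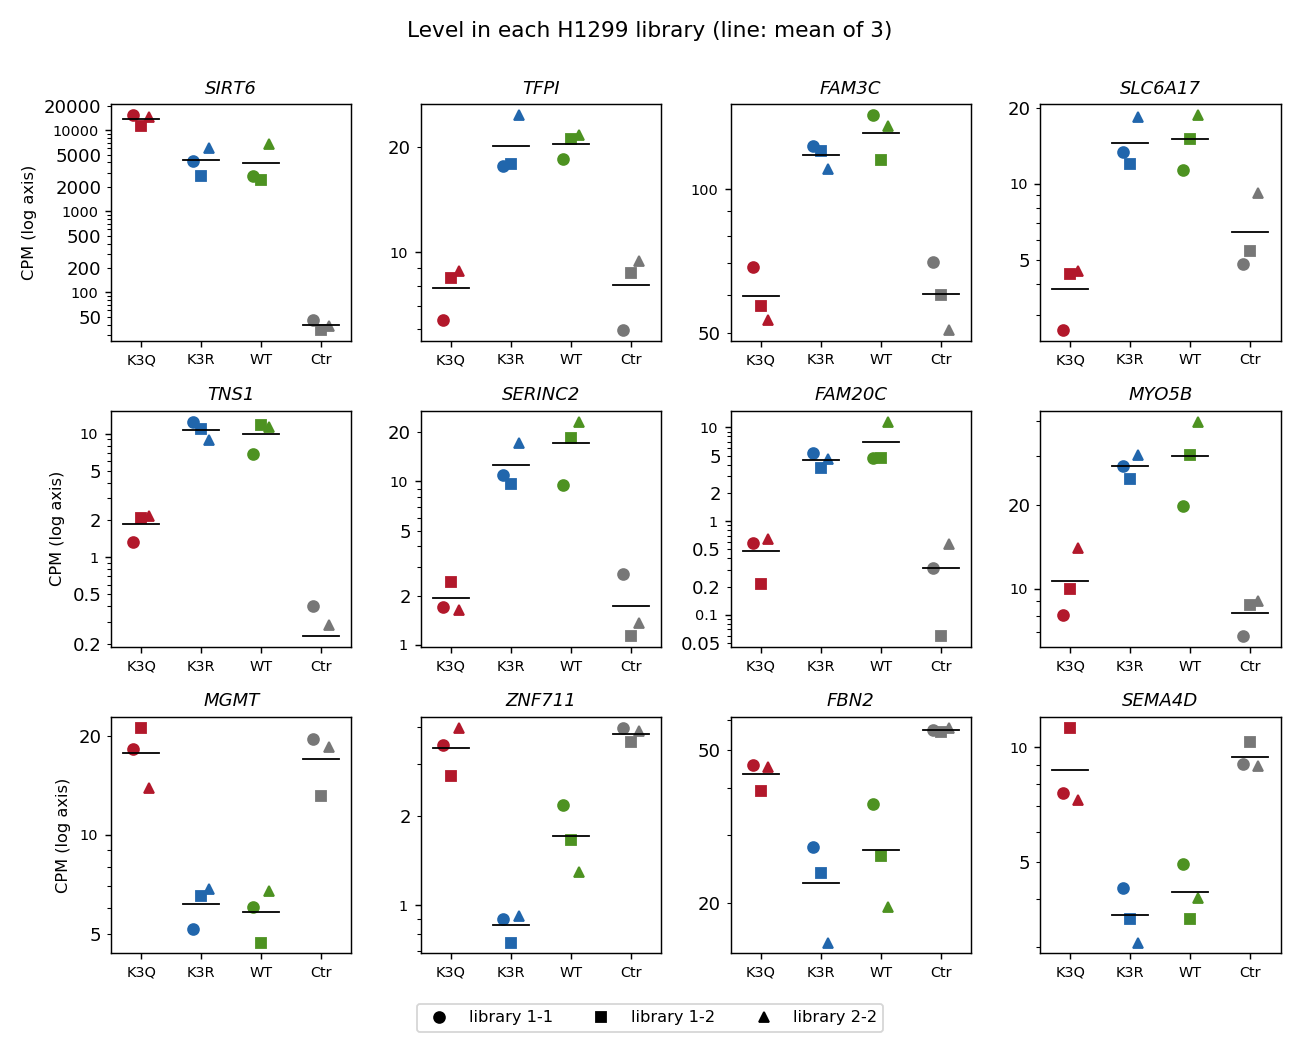
Level of SIRT6 and 11 other genes in each of the 12 H1299 libraries, in CPM on a log axis; symbols give the library number, lines the mean of 3, and a library with no read (TNS1 in Ctr 1-2) has no symbol. SIRT6 is above Ctr in all SIRT6 libraries and highest in K3Q, while TFPI, FAM3C, SERINC2, FAM20C and MGMT have K3Q beside Ctr and K3R beside WT.

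Adhesion, cytoskeleton and trafficking genes made up part of the 58 lower genes. TNS1, a focal adhesion protein that binds actin, had 1.32, 2.08 and 2.17 CPM in K3Q and 12.5, 10.99 and 8.86 CPM in K3R, against 0.405, 0 and 0.284 CPM in Ctr. Unlike TFPI, its K3Q libraries lay above all Ctr libraries, and its adjusted p for K3Q against Ctr was 0.0929, the lowest of the 73. MYO5B, a motor of recycling endosomes, had 8.04, 9.95 and 14.0 CPM in K3Q, against 27.6, 24.8 and 30.2 CPM in K3R (log2 -1.40, SE 0.19, adjusted p = 0.0129). The actin-binding genes LIMA1 (log2 -0.59), SVIL (-0.50) and LMO7 (-0.54), the formin FMN1 (-0.75) and the microtubule-associated MAP7D3 (-0.61) differed by less, each with no overlap between K3Q and K3R libraries. KRT80, a keratin, was at 76.1, 109 and 79.4 CPM in K3Q and 149, 156 and 171 CPM in K3R (log2 -0.86, SE 0.15).

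Secreted and surface signalling genes were another part. TGFB2, a ligand of the TGF-beta pathway, had 3.75, 7.23 and 4.35 CPM in K3Q and 14.3, 15.6 and 14.0 CPM in K3R, against 9.63, 7.13 and 6.41 CPM in Ctr (K3Q minus K3R -1.55, SE 0.26, adjusted p = 0.0253). Ctr lay between the SIRT6 forms for this gene, with only the highest K3Q library reaching into its range. WNT7B (log2 -3.28) and WNT16 (-1.30), ligands of the Wnt family, the growth factor PDGFC (-0.77), the guidance ligands SLIT3 (-1.42), SEMA3E (-0.98) and SEMA7A (-1.30), and the death receptor TNFRSF21 (-1.15) were lower in K3Q too. SLIT3 had 3.75, 9.09 and 6.84 CPM in K3Q, against 10.6, 17.5 and 24.1 CPM in K3R and 11.3, 11.1 and 14.8 CPM in Ctr. For SLIT3 it was the K3Q libraries that lay below all Ctr libraries, and K3R overlapped Ctr.

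Enzymes and carriers were also among the 58. SERINC2, of a family of serine-incorporating membrane proteins, had 1.71, 2.43 and 1.63 CPM in K3Q and 10.99, 9.69 and 17.2 CPM in K3R (log2 -2.72, SE 0.38, adjusted p = 0.0129), and FAM20C, the Golgi kinase of secreted proteins, had 0.585, 0.215 and 0.652 CPM in K3Q and 5.27, 3.65 and 4.55 CPM in K3R (-3.14, SE 0.51, adjusted p = 0.0234). Both genes overlapped Ctr in K3Q and lay above it in K3R. CRABP2, which binds retinoic acid, and DHRS3, a reductase of retinaldehyde, were both lower in K3Q, by log2 -1.98 (SE 0.32) and -1.64 (SE 0.26). CPA4, a carboxypeptidase (-3.10), ACSS3, a mitochondrial acyl-CoA synthetase (-1.72), ABCD2, a peroxisomal fatty acid transporter (-1.26), SRD5A1, a steroid reductase (-0.62), and SAMHD1, which degrades deoxynucleotides (-0.66), also fell. GLRB, a glycine receptor subunit, was lower by log2 -1.29.

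Regulators among the lower genes were GATA2, a zinc finger transcription factor (20.3, 35.8 and 28.1 CPM in K3Q, against 37.5, 56.1 and 66.1 CPM in K3R; log2 -0.92, SE 0.16), TOX2 (-2.16), PRICKLE1, of the planar cell polarity pathway (-1.96), DOCK2, an activator of Rac known from leukocytes (-2.18), and the kinase STK26 (-0.69). AC093627.9, a clone-based symbol with no place in GENCODE 29, was lower by -1.87. Some genes rested on few reads in K3Q: SPTLC3 on 5 against 110 in K3R, LINC01322 on 3 against 61, VAV1 on 9 against 141 and ADGRF1 on 6 against 92, summed over 3 libraries. For LINC01322 the ratio of K3Q to K3R reads, each relative to its library totals, was 0.0530, with an exact 95% Poisson interval of 0.0106 to 0.162 that covers counting error only. COL5A1, a chain of type V collagen, had the largest fall among genes that passed with a mean log2 CPM of at least 1 (log2 -3.44, SE 0.54, adjusted p = 0.0225), with 0.293, 0.286 and 0.109 CPM in K3Q, spread values of 6.21, 1.30 and 0.923 CPM in K3R, and 1.53, 0.297 and 0.227 CPM in Ctr.

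The 15 genes higher in K3Q were smaller in range. MGMT, which repairs O6-methylguanine in DNA (chr10:129467184-129768007, plus strand), had 18.3, 21.1 and 13.9 CPM in K3Q and 5.18, 6.54 and 6.83 CPM in K3R. WT had 6.04, 4.71 and 6.74 CPM and Ctr had 19.5, 13.1 and 18.5 CPM. K3Q again lay with Ctr and K3R with WT, here with the SIRT6 forms in the other order (log2 1.52, SE 0.21, adjusted p = 0.0129). ZNF711, a zinc finger protein encoded on the X chromosome, had 3.46, 2.72 and 3.97 CPM in K3Q and 0.900, 0.749 and 0.923 CPM in K3R, with 2.18, 1.66 and 1.30 CPM in WT and 3.96, 3.56 and 3.86 CPM in Ctr (K3Q minus K3R 1.98, SE 0.27, adjusted p = 0.0129). The WT libraries of ZNF711 lay above all K3R libraries, but K3R minus WT did not pass (log2 -0.999, adjusted p = 0.999).

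Transcription and chromatin regulators were among the others. MN1, a transcriptional coactivator, rose by log2 1.63 (SE 0.30), CITED4, which binds CBP and p300, by 0.83 (SE 0.16), and JADE2, a PHD finger protein of histone acetyltransferase complexes, by 0.71 (SE 0.13). SEMA4D, a membrane semaphorin, had 7.61, 11.2 and 7.28 CPM in K3Q and 4.28, 3.55 and 3.08 CPM in K3R (1.25, SE 0.22), so that of the 3 semaphorins that passed it was the only one higher. The sialyltransferase ST6GAL1 was higher (1.10) while the sialyltransferase ST8SIA5 was lower (-1.19). FBN2, a fibrillin of extracellular microfibrils, had 45.7, 39.3 and 45.2 CPM in K3Q and 28.0, 23.9 and 15.8 CPM in K3R, and 56.5, 55.8 and 57.3 CPM in Ctr, above both. GRB14, an inhibitor of the insulin receptor (1.07), DUSP23, a phosphatase (0.75), QTRT1, which places queuine in tRNA (0.58), QARS1, the glutaminyl-tRNA synthetase (0.55), and FSD1 (0.50) were higher as well, and so was RFPL4A (1.69), which has a near-identical copy beside it and is uncertain.

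Read against the empty vector, the K3R side of the difference was the larger for most of the 73 genes. K3Q overlapped Ctr for 59 of the 73 and K3R lay apart from Ctr for 61, and the Ctr mean was nearer to K3Q than to K3R for 62. None of the 73 passed for K3Q against Ctr in edgeR with construct and batch (23 at an unadjusted p under 0.05), where 10 of 16262 genes did (0.0615%), and 55 passed for K3R against Ctr, where 528 did (3.25%). The 55 became 26 without library 1-1 of K3R, 35 without K3R 2-2 and 35 without Ctr 2-2, 17 with libraries 1-1 and 1-2 summed and 8 in batch 2 alone. These comparisons share the K3Q or the K3R libraries with the one that chose the genes, so the counts describe the genes and are no independent evidence. The 58 lower genes had a median of -0.08 in K3Q minus Ctr and 1.08 in K3R minus Ctr, and the 15 higher genes had 0.25 and -0.88. Exceptions were TNS1, above, and genes for which K3R did not pass against Ctr, such as SLIT3 (K3Q minus Ctr -1.002, K3R minus Ctr 0.41), PLEKHA2 (-0.77 and 0.30), PKIA (-0.51 and 0.15), DNAJC1 (-0.46 and 0.27) and CITED4 (0.51 and -0.31). For these 5 genes the K3Q side was the larger part of the difference. With the library number as a block 5 of the 73 passed for K3Q against Ctr: TNS1 (log2 2.85, adjusted p = 0.0263) and QTRT1 (0.39, 0.0399) were higher in K3Q than in Ctr, and SLIT3 (-0.99, 0.0354), PLEKHA2 (-0.78, 0.0475) and PKIA (-0.50, 0.0416) were lower. With DESeq2 4 passed, namely TNS1 (adjusted p = 1.09e-05), SLIT3 (0.0069), PLEKHA2 (0.0244) and PKIA (0.0495). Without the low-count filter 4 passed as well (TNS1, SLIT3, PLEKHA2 and SLC6A17). In biological replicate 1 alone, a fit of libraries 1-1 and 1-2 only, 17 did, CITED4 and DNAJC1 among them. The shares over all tested genes were 0.836% with the block, 0.775% with DESeq2, 0.731% without the filter and 12.2% in replicate 1 alone. With libraries 1-1 and 1-2 summed none of the 73 passed (edgeR, 8 unadjusted). None did in batch 2 alone (15 unadjusted) or when any 1 of the K3Q or Ctr libraries was left out (15 to 23 unadjusted).

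WT against Ctr shares no library with K3Q against K3R, though it comes from the same fit and the same library numbers. In it 659 genes passed (4.05%), 410 higher (2.52%) and 249 lower (1.53%), and 59 of the 73 were among them, 80.8% of the 73 and 8.95% of the 659. Of the 73, 25 passed with libraries 1-1 and 1-2 summed and 26 in batch 2 alone. Of the 59, all 48 that were lower in K3Q were higher in WT, and all 11 that were higher in K3Q were lower in WT. The medians in WT minus Ctr were 1.19 for the 58 genes and -0.96 for the 15. Across the 12693 genes with a mean log2 CPM of at least 1, the K3Q minus K3R and WT minus Ctr differences had a Pearson r of -0.721, and -0.635 over all 16262. With the same library number in both differences, r over the 12693 genes was -0.391 for 1-1, -0.397 for 1-2 and -0.684 for 2-2. With different numbers it ran from -0.538 to -0.220, the weakest with K3Q minus K3R in 2-2 and WT minus Ctr in 1-1. Library number 2-2 was thus part of both the strongest and the weakest value. In K3R against WT none of the 16262 genes passed, with 486 at an unadjusted p under 0.05, and WT overlapped K3R for 69 of the 73.

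**Figure D3:**
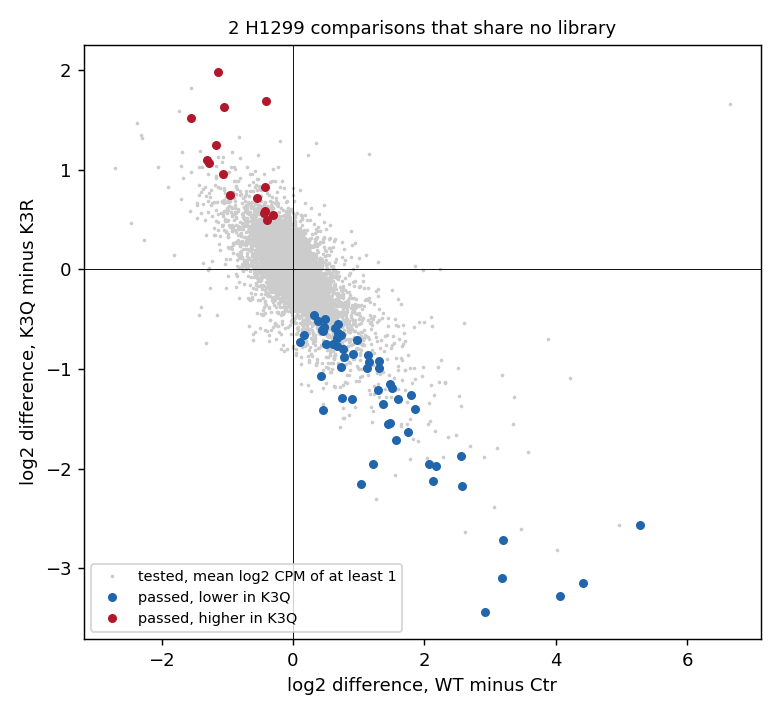
Each point is a tested gene with a mean log2 CPM of at least 1, placed by its log2 difference WT minus Ctr (x axis) and K3Q minus K3R (y axis) in H1299; coloured points passed for K3Q against K3R. The blue genes, lower in K3Q, lie to the right of 0 and the red genes, higher in K3Q, to the left, and the lone grey point at the upper right is SIRT6.

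Of 43 gene lists with a tested member, 5 held a gene that passed for K3Q against K3R and 38 held none. With the library number as a block 26 of the 43 held one, with DESeq2 17 did, and none did with libraries 1-1 and 1-2 summed or without library 1-1 of K3Q, so list statements rest on counts and medians beside the all-gene median of 0.01. The list of collagen genes had 13 of 14 tested members below 0 and a median of -0.46, and only COL5A1 passed. With the library number as a block COL16A1 was also lower (log2 -1.14, adjusted p = 0.0489). The TGF-beta and BMP pathway had 20 of 21 members below 0 and a median of -0.38, with TGFB2 alone passing. Under the block TGFBR2, a receptor (-0.44, adjusted p = 0.0294), and SMAD7, the inhibitory SMAD (-0.75, adjusted p = 0.00984), passed as well. Basement membrane and matrix glycoproteins had a median of -0.28 with 19 of 25 below 0, and FBN2, the only member that passed, was higher. Under the block 6 members were lower, among them TGFBI (-0.94, adjusted p = 0.00373), LTBP1, LTBP2, LTBP3, FBN1 and LAMB1. In TGFBI the levels were 37.4, 69.4 and 96.4 CPM in K3Q and 89.6, 127 and 156 CPM in K3R, so the groups overlapped while each number was lower in K3Q.

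Semaphorins, plexins and neuropilins had SEMA4D higher and SEMA3E and SEMA7A lower, and 15 of 25 members below 0. Neuronal genes had 15 of 18 below 0 (median -0.21) and none passed, with L1CAM at log2 -2.56 (adjusted p = 0.102; 0.00129 with the block) and KIF1A at -1.09 (0.182; 0.00302 with the block). L1CAM, an adhesion molecule of axons, had 1.56, 0.930 and 2.88 CPM in K3Q, against 10.4, 4.50 and 17.7 CPM in K3R and 0.990, 0.0594 and 0.227 CPM in Ctr. Among DNA repair genes MGMT passed alone of 35, and the list median was 0.09. Matrix proteases and inhibitors had none that passed, with MMP2, a gelatinase, at 1.56, 2.86 and 2.93 CPM in K3Q and 3.92, 8.24 and 12.6 CPM in K3R (log2 -1.69, adjusted p = 0.111, and 0.0128 with the block).

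The ATF4 and amino acid response list lay furthest above 0, with a median of 0.56 and 22 of 23 members positive, and none passed (edgeR). In biological replicate 1 alone 17 of 22 tested members passed, all higher in K3Q, where 1293 of 16659 genes did (7.76%). That fit holds libraries 1-1 and 1-2 only, so its p-values may measure a technical spread. With DESeq2 2 of 23 members passed, where 337 of 16262 genes did (2.07%). The summed level ran over 3515 to 6154 CPM in K3Q and 2649 to 3609 CPM in K3R, and the Ctr range of 2771 to 6326 CPM spanned both. The list median was 0.22 in K3Q minus Ctr and -0.27 in K3R minus Ctr. SHMT2, a serine hydroxymethyltransferase of mitochondria, had 440, 280 and 302 CPM in K3Q and 246, 203 and 216 CPM in K3R (log2 0.60, adjusted p = 0.152), and PSPH, the last enzyme of serine synthesis, had 0.56 (adjusted p = 0.127). Both passed with the block. The list median was 0.92 without library 2-2 of K3R and 0.37 in batch 2 alone. Cytosolic ribosomal proteins were positive for 76 of 79 with a median of 0.20 and none passed, and RPSA alone did so with the block. The remaining lists had medians between -0.23 for NRF2 targets and 0.17 for receptor tyrosine kinase and ERK feedback genes, apart from the sirtuins (0.20) and the marker lists with 1 or 2 tested members. Glycolysis and hypoxia-induced genes, a group known for repression by SIRT6, had a median of 0.04 with 18 of 30 positive, and telomere genes a median of 0.11. With the block, HK2, a hexokinase, was higher in K3Q (log2 0.60, adjusted p = 0.012) and the enolase ENO2 (-0.60, 0.00782) and NDRG1 (-2.53, 0.0301) were lower. Also with the block, the receptor tyrosine kinases FGFR3 (-1.52) and MET (-0.49) were lower and the ERK phosphatase DUSP5 was higher (0.67), as was NMNAT3, an enzyme of NAD synthesis (1.03). The NRF2 target ABCC3 (-0.87) was lower with the block, as were the Polycomb-related SFMBT2 (-2.38) and 3 of 13 cancer-testis antigens, a group with near-identical copies. In each other list not named so far, at most 2 members passed with the block.

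**Figure D4:**
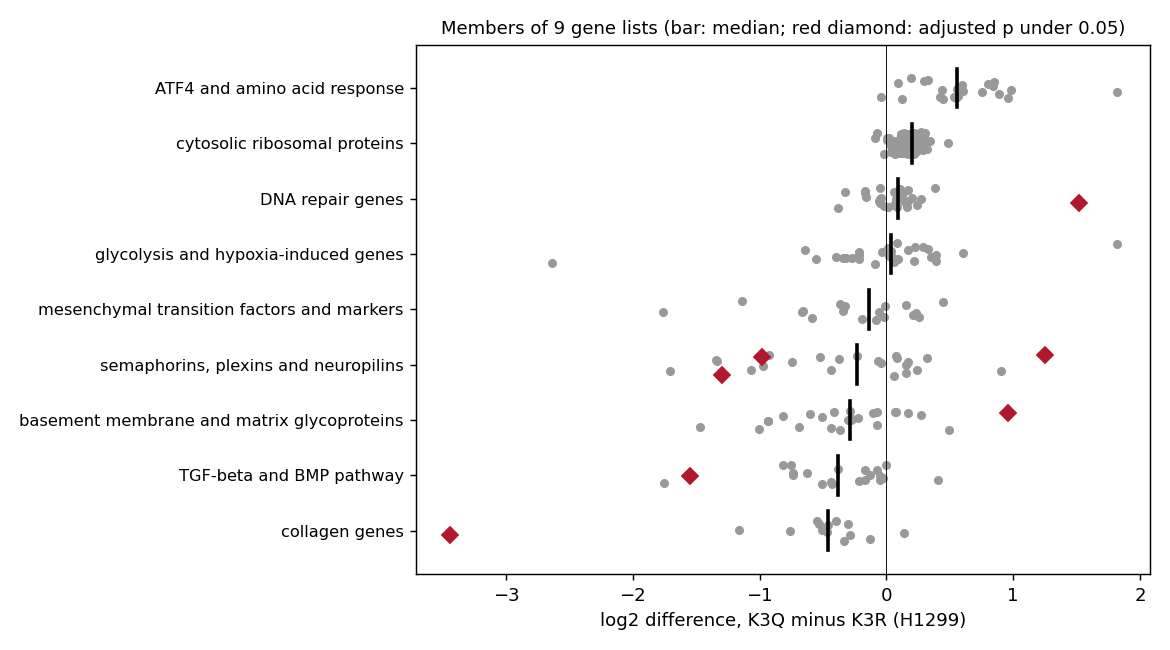
Each point is a tested member of a gene list, placed by its log2 difference K3Q minus K3R in H1299; the bar is the list median and red diamonds passed. The ATF4 and amino acid response and ribosomal protein lists lie right of 0 and the TGF-beta and collagen lists left of it, with most members not passing.

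Some of the called genes stood near each other in the genome. Of the 70 with a coordinate in GENCODE 29 (GRCh38), 15 (21.4%) had another called gene starting within 1 Mb, against 853 of 14143 genes not called (6.03%). The 9 pairs all had the same direction, but 56 of the 70 genes were lower in K3Q, so many pairs would agree anyway. The pairs among SLIT3, SPDL1 and DOCK2 also share genes. No test was made of the share or of the directions. SLIT3, SPDL1 and DOCK2 lay together on chromosome 5 (168661733 to 170083382), where 4 of the 8 other tested genes were below 0. STK26 and RAP2C were a pair on the X chromosome, where 6 of 500 tested genes passed (1.20%).

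In A549, the other lung carcinoma line, the same comparison had a single gene that passed of 16120 (0.0062%), SPANXB1, a member of a family of near-identical copies, lower in K3Q. At an unadjusted p under 0.05 there were 708. A549 held its K3Q libraries 1-2 and 2-2 close to sampling noise, with a chi-square per degree of freedom of 2.60 between them against 16.1 to 34.7 in H1299, and no gene passed with that pair summed. Of the 73 genes, 67 were tested in A549, none passed (edgeR, 14 unadjusted; 0 with DESeq2) and their median difference was -0.05. Without the low-count filter 7 of the 73 passed there, where 228 of 35249 genes did (0.647%). The difference between the lines, tested over 18102 genes, passed for 20 (0.11%), 17 of them among the 73. With the A549 pair summed 6 passed, and with the library number as a block 94 did, 35 of them among the 73. With 1 library left out 12 of the 73 passed without K3R 1-2 of H1299 and 2 to 11 without any other. None of the 73 passed with libraries 1-1 and 1-2 summed (edgeR, 51 unadjusted) or in batch 2 alone (52 unadjusted). Since the 73 were chosen by the H1299 difference, that count is a description.

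SIRT6 in A549 had 28616, 29154 and 26845 reads in K3Q (libraries 1-1, 1-2 and 2-2). The A549 K3R libraries had 23698, 39158 and 53632 reads. In H1299 there were 313500, 155921 and 265561 reads in K3Q and 93740, 54836 and 98064 in K3R. The SIRT6 amount thus also differed between the lines, and its part in the line differences was not tested. TFPI showed the clearest difference between the lines, with H1299 minus A549 at log2 -1.80 (SE 0.18, adjusted p = 5.76e-05). Its A549 levels were 68.9, 37.2 and 35.7 CPM in K3Q and 50.9, 28.7 and 24.9 CPM in K3R, and 44.7, 26.4 and 26.8 CPM in WT and 50.7, 37.9 and 37.1 CPM in Ctr. At each library number K3Q was the higher in A549, where in H1299 it was the lower. SEMA3E went the same way, with 4.94, 4.95 and 4.07 CPM in K3Q and 3.004, 1.91 and 1.81 CPM in K3R of A549, where WT had 2.57, 2.30 and 1.62 CPM and Ctr 4.53, 5.21 and 6.78 CPM (between lines -2.05, SE 0.29, adjusted p = 0.00634). In both lines K3Q of SEMA3E lay nearer to Ctr than K3R did, with the order of the levels reversed. For FAM3C, MGMT, FAM20C and SERINC2 the A549 libraries of K3Q and K3R overlapped, and K3Q minus K3R was -0.07 (SE 0.10), -0.10 (SE 0.14), 0.02 (SE 0.15) and -0.05 (SE 0.18).

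**Figure D5:**
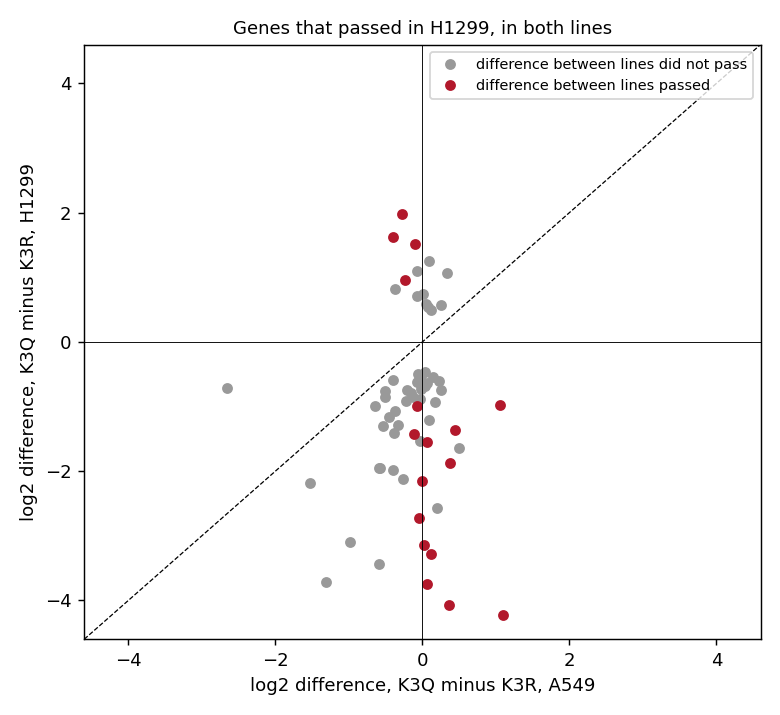
Log2 difference K3Q minus K3R in H1299 (y axis) and A549 (x axis) for the 67 of the 73 genes tested in both; the dashed line marks equal values and red points passed the test of the difference between lines. Most points lie within 1 of 0 on the A549 axis while they spread on the H1299 axis that chose them.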

How the data were processed

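RNA of 24 libraries was sequenced after SMARTer library preparation. The authors deposited raw counts, unnormalised, for 59385 gene symbols; FastQC, cutadapt, STAR, featureCounts and GRCh38 are named per the submitters' processing notes, while their versions, the strand setting and the annotation were not found in the labels or headers. Near-identical copies and overlapping genes may share reads.

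The 12 H1299 libraries were filtered with filterByExpr, scaled by TMM and fitted with construct and batch in edgeR 4.0.16 (R 4.3.3); A549 was fitted alone, and the difference between lines on all 24 libraries. P-values are Benjamini-Hochberg adjusted; standard errors are the absolute log2 change over the square root of F. CPM values use TMM library sizes within a line, with 1 exception. The values of VIM, CDH1, EPCAM and FOXA2 and the summed cell type markers use raw library totals. Named genes are the 15 largest rises and falls that passed at a mean log2 CPM of 1 or more, in the same direction at each library number, list members that passed (or the 2 lowest p) and the 3 lowest p of the line difference in each direction; others were chosen after their values were seen, and a few genes the rule names are not reported here. Members and lists were chosen with earlier results of these data known.

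Same-numbered libraries deviated together in H1299 (r 0.163 to 0.708 between constructs, batch shift included). The number was therefore taken to pair them in an alternative fit (the block), while the main fit held construct and batch only. Coordinates are from GENCODE 29, promoters from RefSeq. On simulated data for this comparison the test recovered 31% of 1.5-fold and 75% of 3-fold changes, 100 genes each, with 13 false calls among 15795 unchanged genes. The simulated libraries were independent, with no batch shift and no deviation shared by library number. These shares may therefore not hold for the real libraries, and the rate of false calls there was not tested. Alternatives included DESeq2 1.42.0, RLE scaling, no filter, batch and replicate choices and leaving out each library. Fitting biological replicate 1 alone and summing the near-identical A549 pair were chosen after seeing the data.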

Additional observations from a re-analysis of the deposited data

Results flagged for a closer look

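The difference K3Q minus K3R differed between the lines, H1299 minus A549, for 20 genes in the interaction test of edgeR over all 24 libraries. The log2 values were -1.80 for TFPI, -2.05 for SEMA3E, -3.16 for FAM20C, -2.68 for SERINC2, 1.62 for MGMT, -0.93 for FAM3C and 2.03 for MN1. They were -3.82 for VAV1, -5.33 for SPTLC3 and -4.43 for LINC01322, which rest on 9, 5 and 3 reads in H1299 K3Q and so on the prior count of the fit. SLIT3 had -1.31, TGFB2 -1.63, TOX2 -2.15, WNT7B -3.39, AC093627.9 -2.26, FBN2 1.18 and ZNF711 2.26.

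Outside the 73 genes, FAM114A1 had -0.97, ADARB1 1.13 and GPX1 3.02. FAM114A1 stood at 29.2, 28.2 and 21.2 CPM in H1299 K3Q and 40.0, 39.5 and 40.7 CPM in K3R. GPX1, listed as a polymorphic pseudogene in GENCODE 29, had 3.66, 0.644 and 0.597 CPM in H1299 K3Q and 0.225, 0.0999 and 0.308 CPM in K3R, and its Ctr libraries ran from 0.178 to 7.61 CPM.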

How the results depend on the processing

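All 73 genes kept their direction under the 15 alternatives run, and all 73 passed again with the library number as replicate block and with DESeq2. These fits reuse the libraries that chose the genes, and K3Q and K3R did not overlap for 72 of the 73. The block and DESeq2 also call more genes than the main fit. Neither statement is therefore independent evidence. The 73 calls became 33 with no batch term, 526 with the replicate block, 650 with no low-count filter, 337 with DESeq2, 0 with biological replicate 1 summed (1144 at an unadjusted p under 0.05), 0 in batch 2 alone (978) and 1293 in biological replicate 1 alone. Leaving out 1 library gave 0 to 82: 0 without K3Q 1-1 (1349 unadjusted), 4 without K3Q 1-2, 5 without K3Q 2-2, 4 without K3R 1-1, 82 without K3R 1-2 and 11 without K3R 2-2. The cause was not tested; summed and single-batch fits have fewer libraries.

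For K3Q against Ctr, 10 calls became 136 with the replicate block, 260 with no filter, 126 with DESeq2, 1 summed, 1 in batch 2 and 2028 in biological replicate 1 alone, and 3 to 8 leaving out 1 library. For K3R against Ctr, 528 became 330 with no batch term, 1392 with the block, 1276 with no filter, 921 with DESeq2, 44 summed, 20 in batch 2, 1203 in replicate 1 alone and 143 on the libraries compared, and 102 to 553 leaving out 1. For WT against Ctr, 659 became 409, 1585, 1301, 1057, 93, 90, 1493 and 169 in that order, and 245 to 495 leaving out 1. In A549, 1 became 0 with no batch term, summed, in batch 2 alone, on the libraries compared or with the A549 pair summed, 7 with the block, 228 with no filter, 23 with DESeq2 and 4 in replicate 1 alone, and 0 to 1 leaving out 1. The 20 line differences became 4 with no batch term, 94 with the block, 305 with no filter, 100 with DESeq2, 0 summed, 0 in batch 2, 132 in replicate 1 alone and 6 with the A549 pair summed, and 2 to 15 leaving out 1.

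SIRT6 in K3Q against K3R passed with the replicate block (log2 1.73), no filter (1.64), DESeq2 (1.65), replicate 1 alone (1.94) and the libraries compared (1.65). With 3 libraries per group, most 1.5-fold changes were missed in the simulated data, so changes of that size or smaller may be missed here.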

Other observations

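Against the empty vector, 10 genes passed for K3Q in H1299, SIRT6 included, and none of them was among the 73. KIF1A, a kinesin of axonal transport, was higher in K3Q than in Ctr (log2 2.92, adjusted p = 0.0108), at 17.7, 12.5 and 18.3 CPM in K3Q and 2.39, 0.832 and 3.12 CPM in Ctr. Its level was 36.2, 22.8 and 44.4 CPM in K3R and 33.1, 30.1 and 56.2 CPM in WT, so the gene was above the empty vector with all 3 SIRT6 forms. SIRPA was lower in K3Q than in Ctr (log2 -2.69, adjusted p = 0.00177), as was UBASH3B (-1.19, adjusted p = 0.00225). The K3Q minus K3R differences of these were -0.38 and -0.19 and did not pass.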
